A study of Mus musculus with 34 samples.

Results

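The genes described here are the matrix metalloproteinases (Mmp), the ADAMTS proteases, the related ADAMTS-like proteins (Adamtsl) and the tissue inhibitors of metalloproteinases (Timp1 to Timp4). They were chosen by symbol: every probe with a single annotated symbol that starts with Mmp, Adamts or Adamtsl and goes on with a number, or that is one of the 4 Timp genes, with Mmp9 and Mmp12 left out. This gave 48 probes and 43 genes among the 18617 genes with a symbol on the array. Adamts9 had 3 probes, Adamts10, Adamtsl1 and Adamtsl3 had 2 each, and probes of a gene were averaged. No filter on low values was possible or applied, so all 43 genes were tested. Adamts2, Adamts13, Adamts14, Adamts17, Mmp15 and Mmp27 were not analysed here.

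The tissue was mouse epididymal fat, the fat pad beside the epididymis. STD mice ate a normal diet. HF0 mice were offspring of STD given a high fat diet, HF1 were offspring of HF0, HF3 of HF2 and HF4 of HF3, all on the high fat diet. Normal diet was given to the offspring of HF0 called HF1-REV, to those of HF2 called HF3-REV and to those of HF3 called HF4-REV. Strain, age, feeding time and the number of mice behind each RNA are not given in the labels. Each of 34 two-colour arrays compared 2 groups directly and each pairing was run as a dye swap: 12 arrays in experiment 1 (STD, HF0, HF3 and HF4, RNA extracted with Trizol) and 22 in experiment 2 (the same groups plus HF1 and the 3 reversal groups, RNA extracted with Qiagen reagents). STD, HF0, HF3 and HF4 therefore have n = 2 experiments, and HF1 and the reversal groups n = 1.

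Metalloproteinases cut collagens, gelatin, laminin and other matrix proteins and are made as inactive proenzymes. ADAMTS proteases cut the large proteoglycans aggrecan and versican or trim procollagens, and ADAMTS-like proteins share their outer domains without the catalytic one. TIMPs bind the catalytic site of metalloproteinases, and Timp3 also blocks several ADAMTS enzymes. In growing fat, this system is known for remodelling the matrix around enlarging adipocytes and new vessels.

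The values are log2 ratios, each with its sign set so that a positive value puts the group written first on top. The dye in the numerator and the base of the logarithm were stated in no label or header used here; red (Cy5) over green (Cy3) and base 2 were taken. If green was the numerator every sign turns, and with it the order of the groups from positive to negative. Directions are therefore given as the positive and negative side of this coding, not as higher or lower expression, and no fold is given.

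The 2 experiments differed in how far their arrays added up. In experiment 2 the values of its 8 groups left 7.08% of the sum of squares of the swap averages of these 43 genes; unrelated averages would leave 36.4%. In experiment 1 the values of its 4 groups left 52.4%, where unrelated averages would leave 50%. Over all 22879 features the shares were 6.90% and 34.5%. Over these 43 genes, the mean of a pairing correlated with the value given by its experiment's other pairings at r = -0.79 (HF4 with HF3) to 0.36 (HF4 with STD) in experiment 1. In experiment 2 that r was 0.20 for HF4 with HF0 and 0.72 to 0.87 for the other 5 pairings. The mean of a pairing correlated in the same way at r = 0.61 to 0.86 across all features in experiment 2, and at r = -0.13 to 0.70 in experiment 1; genes are not independent replicates in such an r. The dye swaps of HF3 with STD in experiment 1 (r = -0.11) and of HF1 with HF1-REV (r = -0.31) ran against each other across all features. The group values of experiment 1 are therefore given beside the arrays they come from. For most named members, comparisons that hold HF1 or a reversal group are also given within experiment 2. Medians of lists, probe values and some other genes are given from the joint fit only.

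**Figure D1:**
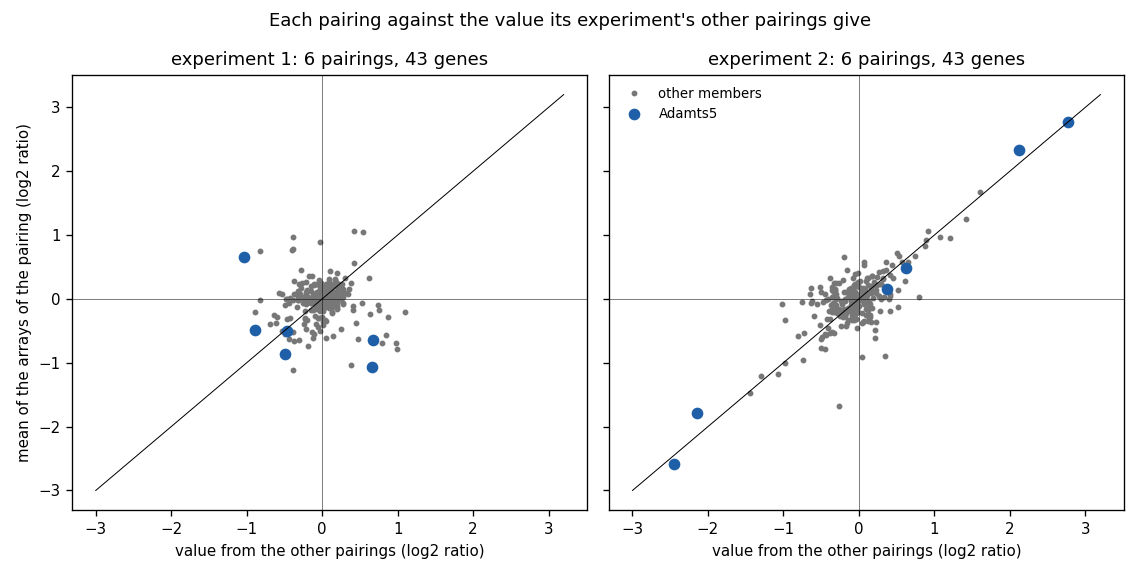
For each pairing that other pairings of its experiment can predict, the mean log2 ratio of its own arrays (vertical axis) is plotted against the value from the other pairings (horizontal axis), one point per gene and pairing, with the diagonal drawn. In experiment 2 the 6 Adamts5 points lie along the diagonal from -2.58 to 2.78, while in experiment 1, 3 of its 6 points have opposite signs on the 2 axes.

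Markers of male germ cells and of the epididymis differed between several groups. The 12 male germ cell markers had a median of 4.82 over HF0 in HF4, 3.48 in HF3 and 3.52 in STD of experiment 2, against 0.14 in HF1 and -0.12 in HF4-REV. In experiment 1 they stood at 4.23 in HF4, 2.54 in HF3 and 1.18 in STD. The 10 epididymis markers measured had a median of 5.05 in the STD extract of experiment 2 and between -0.81 and 1.07 in its other groups. Experiment 1 gave 1.59 in STD, with all 10 positive, 0.995 in HF3 and 0.30 in HF4. The part of these cells in the results below was not tested, and in such bulk RNA a change in the share of a cell type and a change in RNA per cell cannot be told apart.

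With limma on the 12 group values (n as above; Benjamini-Hochberg adjustment over 22879 features), 4 of 43 genes (9.3%) passed an adjusted p of 0.05 in HF4 against HF4-REV, where 11.2% of all features passed. Adamts4 and Mmp21 were on the positive side and Timp4 and Adamts15 on the negative. HF1 and each reversal group have 1 value, so the spread in this fit comes from STD, HF0, HF3 and HF4 alone. An SE or p-value of a comparison with HF1 or a reversal group therefore holds no spread of that group. In HF4 against HF1, 1 of 43 passed (2.33%; Adamts4), beside 2.81% of all features. Both shares lie near the background, so neither is a result about the family as a whole.

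In the other 10 comparisons 0 of the 43 genes passed. All features passed at 0.437% in HF4 against STD, 4.21% in HF4 against HF0, 0.0874% in HF3 against HF3-REV and 0% in the other 7. At an unadjusted p under 0.05 the share of members was under that of all features in 6 of these 10 comparisons and above it in 4. The counts were 5 (11.6%) in HF0 against STD, where 7.36% of features passed, 4 (9.3%) in HF3 against STD with 7.47%, 6 (13.95%) in HF4 against STD with 15.0%, and 4 (9.3%) for HF1 with HF0 with 7.18%. HF3 against HF0 had 1 (2.33%) with 7.80% of features, HF4 against HF0 had 2 (4.65%) with 10.9%, HF4 against HF3 had 0 with 5.50%, and HF3 against HF1 had 4 (9.3%) with 9.12%. HF1 against HF1-REV had 1 (2.33%) with 3.59%, and HF3 against HF3-REV had 4 (9.3%) with 15.4%. HF3 and HF4 met STD on the same array only in experiment 1, and for Adamts5 the fitted HF3 against STD (1.44) opposes those arrays (-0.25 and -0.72). A fit of all 34 arrays, which takes dye swaps as replicates, called 9 members in HF0 against STD (14.8% of features), 9 in HF3 against STD (10.5%), 8 in HF4 against STD (17.6%), 6 for HF1 with HF0 (9.81%), 5 in HF3 against HF0 (14.3%), 3 in HF4 against HF0 (14.9%), 3 in HF4 against HF3 (11.8%), 7 in HF3 against HF1 (11.9%), 0 in HF1 against HF1-REV (0.293%) and 1 in HF3 against HF3-REV (4.55%). The labels do not say that arrays or extracts hold separate mice, so all these p-values measure the spread between extracts or arrays, which may be technical.

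The range of each gene over the 12 group values describes how far the family moved, each taken from the mean of STD, HF0, HF3 and HF4 in its experiment. The median range was 0.73 for the 43 genes and 0.74 for all features. Adamts5 had the largest range, 3.92, above 99.2% of features, followed by Mmp7 (2.65), Adamts4 (2.15), Adamts18 (2.00), Adamts1 (1.78), Timp4 (1.67), Timp2 (1.58), Adamts15 (1.30), Adamtsl4 and Adamts8 (1.15 each) and Mmp3 (1.10). Adamts10 had the smallest, 0.24. The 2 arrays of a swap shared a sign in 17 of 17 dye swaps for Adamts5, in 3 for Timp2 and in 4 for Adamts8.

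**Figure D2:**
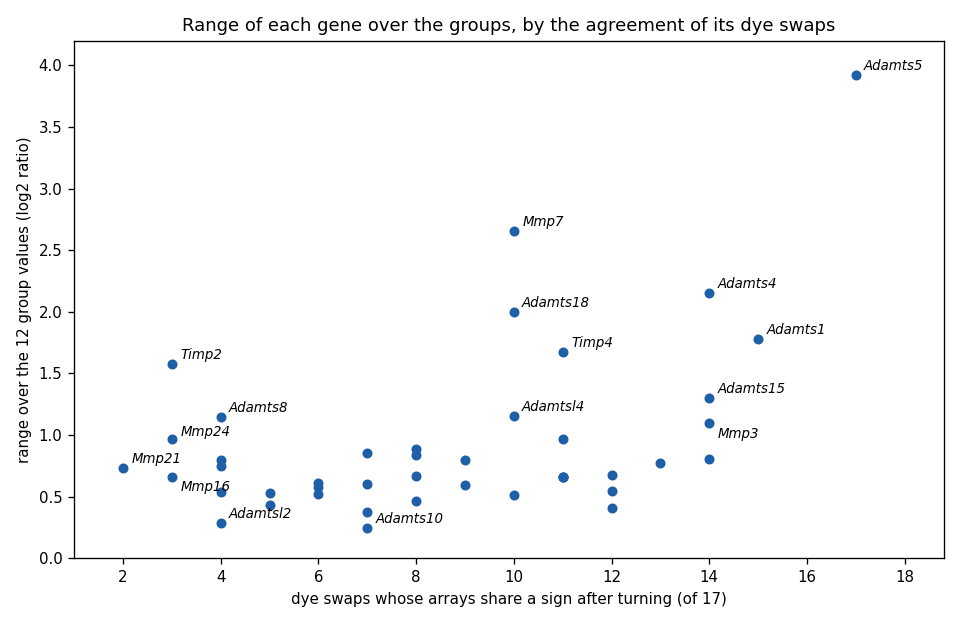
Each point is 1 of the 43 genes, with its range over the 12 group values in log2 units (vertical axis) against the number of the 17 dye swaps whose arrays share a sign once turned (horizontal axis). Adamts5 stands at 3.92 and 17 swaps; Timp2, at 1.58, shared a sign in 3 swaps and Mmp21, at 0.73, in 2.

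Among the proteoglycan-cleaving ADAMTS genes, Adamts5 encodes the main aggrecanase of mouse cartilage, an enzyme that also cuts versican. In experiment 2 the groups formed 2 sets. HF1 over HF0 was 2.31 and 2.35 on the arrays of the swap, HF3 over HF0 was 2.93 and 2.63, and HF4 over HF0 was 0.09 and 0.21. HF3 over HF1 was 0.48 and 0.48, HF4 over HF1 was -1.74 and -1.83, and HF4 over HF3 was -2.47 and -2.70. HF1 and HF3 thus stood apart from HF0 and HF4 on every array that compared them, with no overlap between the arrays of the 4 pairings involved and those of HF4 with HF0.

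The reversal groups lay with HF1 and HF3. HF1 over HF1-REV was -0.32 and -0.17, HF3 over HF3-REV was -0.20 and -0.50, and HF4 over HF4-REV was -2.52 and -2.11. Relative to HF0, the group values of Adamts5 were 2.22 in HF1, 2.77 in HF3, 0.26 in HF4, 2.47 in HF1-REV, 3.13 in HF3-REV, 2.58 in HF4-REV and -0.80 in STD. The STD extract was on the negative side of HF0 on each of 4 arrays, HF0 over STD being 0.77, 0.71, 0.98 and 0.72. Within experiment 2, HF1 against HF1-REV was -0.24 and HF3 against HF3-REV -0.35, small beside the gap between the sets.

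Experiment 1 did not repeat this order. HF3 over HF0 was -1.23 and -0.92 there, HF4 over HF0 was 0.76 and 0.55, and HF4 over HF3 was -0.74 and -0.56. The third of these does not follow from the other two, and the least squares values (-0.21 in HF3, -0.19 in HF4 and 0.48 in STD, each over HF0) lie far from several arrays. Both experiments shared a sign on all 4 arrays for HF4 over HF3, which was negative, and for HF4 over HF0, which was positive and small in experiment 2.

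No comparison of Adamts5 passed in the limma fit, which takes the 2 experiments together. HF4 against HF4-REV was -2.27 ± 1.13 (SE, adjusted p = 0.229) and HF3 against HF0 was 1.28 ± 0.89 (adjusted p = 0.831). HF3 against HF3-REV was -1.57 in that fit and -0.35 within experiment 2, because the fit averages HF3 over both experiments. A fit of the 22 arrays of experiment 2 alone, chosen after seeing the data and taking dye swaps as replicates, gave -2.32 ± 0.14 in HF4 against HF4-REV (adjusted p = 3.15e-10), 2.77 ± 0.10 in HF3 against HF0 (adjusted p = 4.65e-13) and -0.35 in HF3 against HF3-REV, which did not pass. In that fit 9.3% of the members and 25% of all features passed in HF4 against HF4-REV, and its p-values speak only for the extracts of experiment 2. Adamts5 was measured by 1 probe, so no second probe bears on these values.

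**Figure D3:**
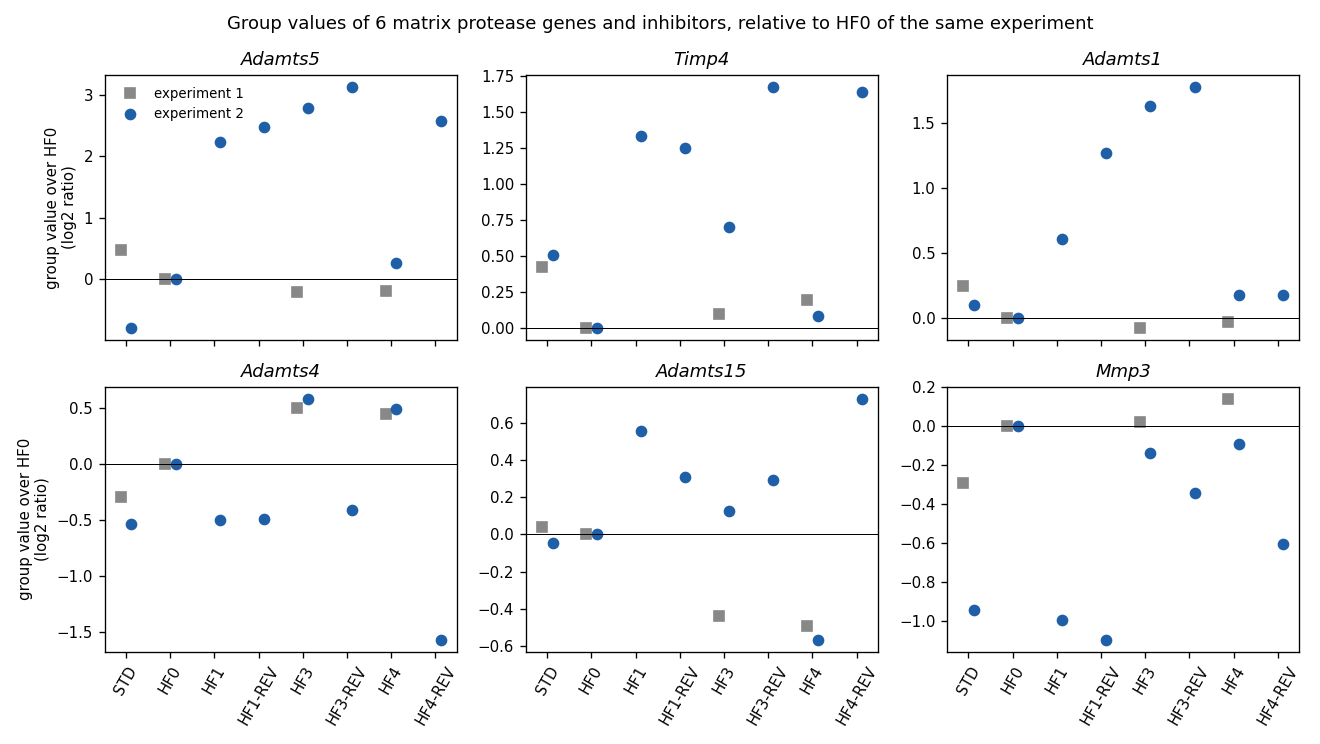
Group values of 6 genes as log2 ratios over HF0 of the same experiment (vertical axes, each with its own scale) by diet group (horizontal axis), with grey squares for experiment 1 and blue circles for experiment 2; HF0 is 0 by construction and each point is 1 extract. In experiment 2 Adamts5 lies between 2.22 and 3.13 in HF1, HF3 and the reversal groups and at 0.26 in HF4.

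Adamts4, the other classical aggrecanase, which inflammatory cytokines induce in many cells, was the only gene of the family called in more than 1 comparison. HF4 over HF4-REV was 1.79 and 2.33 on the 2 arrays, and the fit gave 2.02 ± 0.16 (SE; adjusted p = 0.00974). HF4 over HF1 was 1.14 and 1.00, with 0.96 ± 0.16 in the fit (adjusted p = 0.0430). The call in HF4 against HF1 was lost without both arrays of any pairing of experiment 1 except HF0 with STD (adjusted p up to 0.170), and in 7 of 34 fits that left out 1 array. Under quantile normalization Adamts4 in HF4 against HF4-REV was 1.17 with an adjusted p of 0.0524. HF4-REV lay farthest on the negative side, at -1.57 over HF0, and HF1, HF1-REV, HF3-REV and STD of experiment 2 lay between -0.54 and -0.41, which differ by less than the arrays of many swaps do.

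By their group values, the high fat groups HF3 and HF4 stood on the positive side of HF0 and STD for Adamts4 in both experiments. The arrays of HF4 with HF0 in experiment 1 did not show this for HF4. HF3 over HF0 was 0.35 and 0.77 in experiment 1 and 0.86 and 0.30 in experiment 2. HF3 over STD was 1.27 and 0.83 and HF4 over STD was 0.65 and 1.48, all in experiment 1. In the fit these were 0.54 ± 0.13 (adjusted p = 0.266), 0.96 ± 0.13 (adjusted p = 0.626) and 0.89 ± 0.13 (adjusted p = 0.0627), none of which passed. HF4 over HF0 was -0.05 and -0.35 on the arrays of experiment 1 and 0.20 and 0.87 on those of experiment 2. Those of experiment 1 oppose the group value of HF4 there, which was 0.45 over HF0. HF3 over HF3-REV was 0.58 and 1.40 (fit 0.93 ± 0.16, adjusted p = 0.0986), while HF1 over HF1-REV was 0.02 and -0.04.

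The 3 differences between reversal contrasts were tested directly and 0 of 43 genes, as 0% of features, passed in any of them; at an unadjusted p under 0.05 there were 3, 5 and 4 members (6.98%, 11.6% and 9.3%), where 7.77%, 18.4% and 16.7% of features passed. The lowest adjusted p was that of Adamts4 for the HF4 reversal contrast against the HF1 one, with a difference of 2.03 ± 0.24 and an adjusted p of 0.0765. Its reversal contrast in HF4 differed from that in HF3 by 1.09 ± 0.22 (adjusted p = 0.119). The call in HF4 against HF4-REV is thus not shown to differ from the other generations at this threshold.

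Adamts15, which cleaves versican and aggrecan, lay on the opposite side. HF4 over HF4-REV was -1.23 and -1.37 (fit -1.21 ± 0.24, adjusted p = 0.0316), and HF4 over HF1 was -1.33 and -1.03 (fit -1.04 ± 0.24, adjusted p = 0.0935). HF4 over HF0 was negative on all 4 arrays, at -0.10 and -0.67 in experiment 1 and -1.17 and -0.09 in experiment 2. HF1 over HF0 was 0.29 and 0.66, which did not overlap with any of these. Its group value over HF0 ran from -0.57 in HF4 to 0.73 in HF4-REV within experiment 2. Without both arrays of HF3 with HF0 or of HF3 with STD in experiment 1, the value in HF4 against HF4-REV stayed at -1.21, but the adjusted p rose past the threshold.

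Adamts1, a protease of versican and other proteoglycans that is also known to restrain vessel growth, followed HF3 in experiment 2. HF3 over HF0 was 1.91 and 1.44, HF3 over HF1 was 1.32 and 0.64, and HF4 over HF3 was -0.90 and -2.03. HF1 over HF0 was 0.62 and 0.82, and HF4 over HF0 was 0.01 and 0.05. Unlike Adamts5, its value in HF4-REV was that of HF4, with HF4 over HF4-REV at 0.25 and -0.25. HF1 over HF1-REV was -0.97 and -0.35 and HF3 over HF3-REV -0.21 and -0.08, so HF1 and HF3 were on the negative side of their normal diet counterparts on each of these arrays. In experiment 1 HF3 over HF0 was -0.78 and -0.48 and HF4 over HF0 was 0.72 and 0.79, and the fit over both gave 0.78 ± 0.44 for HF3 against HF0 (adjusted p = 0.790).

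Adamts1 is a neighbour of Adamts5 on chromosome 16. Its promoter, from the RefSeq table (GRCm38.p6, chr16:85803064-85803363, minus strand, 250 bases before to 50 bases from the gene start), is shown with the motifs in capitals because Adamts1 shifted with HF3 and because its sequence holds several of the motifs searched, unlike that of Timp4 printed with that gene. The capitals mark 3 matches of GGGCGG, the GC box, first bases 147, 76 and 25 bases before the start, and 1 of TATAAA, 32 bases before it.
Adamts1: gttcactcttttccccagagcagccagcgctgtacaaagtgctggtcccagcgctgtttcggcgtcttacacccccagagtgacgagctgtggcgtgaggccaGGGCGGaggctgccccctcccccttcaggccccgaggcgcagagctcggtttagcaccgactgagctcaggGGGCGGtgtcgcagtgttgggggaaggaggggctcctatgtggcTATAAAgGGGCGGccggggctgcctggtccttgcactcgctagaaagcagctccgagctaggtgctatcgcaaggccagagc

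Of the remaining proteoglycan-cleaving members, Adamts8, Adamts9 and Adamts20 gave no called comparison. Adamts8 followed the dye rather than the group: red over green was positive on 30 of 34 arrays, with a mean of 0.52, and its swap arrays shared a sign in 4 of 17 swaps. HF0 over STD in experiment 2, for example, was -2.29 and -0.93 with HF0 in green and 0.39 and 1.02 with HF0 in red. The 3 probes of Adamts9 correlated at -0.36 to 0.07 over the arrays, and in HF4 against HF4-REV they gave 0.10, 0.41 and -0.44. Adamts20 ranged over 0.67.

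In HF4 against HF4-REV the 43 genes as a set were placed like the array at large. Of them 21 were on the positive side, with a median of -0.00 and a median size of 0.25, where all features had a median of 0.03 and a median size of 0.31. Adamts4 at one end and Adamts5, Timp4 and Adamts15 at the other stood away from the rest. Under quantile normalization 0 of the 43 genes passed. The fourth called gene, Mmp21, had arrays of -0.08 and 1.29 that disagreed in sign (fit 0.66 ± 0.14, adjusted p = 0.0409). Without the second of these arrays its value was -0.0285, and it passed in 11 of the 34 fits that left out 1 array. Red over green was negative on both arrays, and the arrays of its swaps shared a sign in 2 of 17 dye swaps. In this comparison all 12 germ cell markers were called on the positive side, with a median of 5.29, and 8 of 9 adipocyte markers were negative, with a median of -0.88; the part of either in the protease values was not tested.

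**Figure D4:**
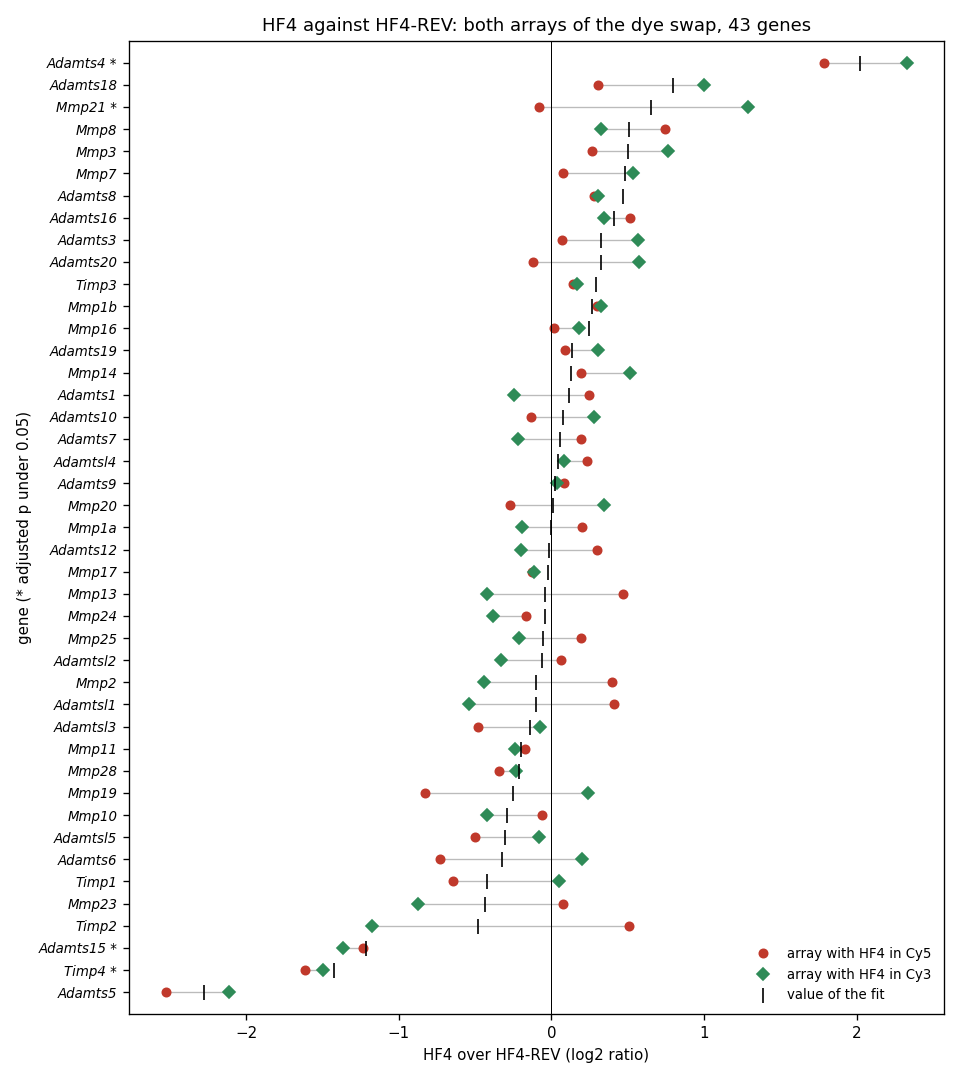
Log2 ratio of HF4 over HF4-REV (horizontal axis) for the 43 genes, sorted by the value of the fit (black tick); red circles are the array with HF4 in Cy5, green diamonds the array with HF4 in Cy3, and stars mark an adjusted p under 0.05. Both arrays of Adamts4 lie at 1.79 or above and both of Adamts5, Timp4 and Adamts15 at -1.23 or below, while those of Mmp21 lie on either side of 0.

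Among the inhibitors, Timp4, which fat, heart and muscle are known to express, correlated with Adamts5 over the 12 group values (r = 0.84). Within experiment 2, Timp4 and Adamts5 parted in STD, at 0.50 and -0.80 over HF0, and in HF3 against HF1, at -0.63 and 0.55. For Timp4, HF4 over HF4-REV was -1.61 and -1.49 (fit -1.42 ± 0.24, adjusted p = 0.0238). HF3 over HF3-REV was -1.22 and -0.72 (fit -1.20 ± 0.24, adjusted p = 0.112, and -0.97 within experiment 2). HF1 over HF1-REV was 0.36 and -0.18. HF4 and HF3 were thus on the negative side of the normal diet offspring on every array of those swaps, while the arrays of HF1 lay on either side of 0.

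HF1 was on the positive side of HF0, HF3 and HF4 for Timp4 within experiment 2. HF1 over HF0 was 1.06 and 1.44 (fit 1.26 ± 0.24, adjusted p = 0.689), HF3 over HF1 was -0.79 and -0.74, and HF4 over HF1 was -1.36 and -1.05 (fit -1.12 ± 0.24, adjusted p = 0.0767). HF3 over HF0 was 0.58 and 0.76 and HF4 over HF0 was -0.13 and 0.54. The order of group values over HF0 was HF4 at 0.08, STD at 0.50, HF3 at 0.70, HF1-REV at 1.25, HF1 at 1.33, HF4-REV at 1.63 and HF3-REV at 1.67. The arrays of single Timp4 swaps differed by more than the gap between HF1-REV and HF3-REV in several pairings, so those 4 groups have no firm order. In experiment 1, HF3 over STD was -1.02 and -1.05 and HF4 over HF3 was -0.74 and -0.84, while HF4 over HF0 was 0.88 and 0.68. Without both arrays of HF4 with HF3 in experiment 1, HF4 against HF4-REV was -1.20 and no longer passed (adjusted p = 0.144).

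The promoter window of Timp4 (RefSeq, GRCm38.p6, chr6:115252156-115252455, minus strand, same layout) holds none of the 4 motifs searched, which says only that these letters are not in this window.
Timp4: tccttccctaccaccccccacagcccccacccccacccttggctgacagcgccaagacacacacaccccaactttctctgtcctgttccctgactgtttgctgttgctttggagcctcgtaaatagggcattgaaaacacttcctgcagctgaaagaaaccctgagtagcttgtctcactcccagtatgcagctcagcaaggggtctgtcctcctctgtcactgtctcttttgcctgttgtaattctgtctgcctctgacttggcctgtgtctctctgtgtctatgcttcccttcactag

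Timp1, an inducible inhibitor of most secreted metalloproteinases, and Timp3, which is held in the matrix, had ranges of 0.66 and 0.60, which exceed those of 40.2% and 33.7% of features. Timp1 was on the positive side of HF0 over STD on all 6 arrays, from 0.01 to 0.87 (fit 0.27), but close to 0 on several. HF4 over HF4-REV was -0.64 and 0.05 for Timp1 and 0.14 and 0.17 for Timp3. Timp2, which blocks metalloproteinases and also helps membrane-type enzymes to activate Mmp2, had a range of 1.58 that came from the STD extract of experiment 2, at -1.11 over HF0. Its HF0 over STD arrays there were 1.23, -0.18, 2.12 and 1.28. Timp2 also followed the dye, red over green being positive on 29 of all 34 arrays. No Timp gene passed outside the comparison of HF4 with HF4-REV, with 1 of 4 called there.

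Of the metalloproteinases, 8 lie in 1 cluster on chromosome 9, in the order Mmp13, Mmp1b, Mmp3, Mmp1a, Mmp10, Mmp8, Mmp20 and Mmp7, with Mmp12 and Mmp27 between them. The cluster holds collagenases (Mmp13, Mmp1a, Mmp1b and Mmp8), stromelysins (Mmp3 and Mmp10), the enamel protease Mmp20 and matrilysin (Mmp7). Promoter windows of 29 of the 43 genes were in the RefSeq table. TGANTCA, where N is any base, takes in TGAGTCA and TGACTCA, the letters bound by the factors Fos and Jun. It was found on either strand in 7 of these 29 (24.1%), against 7.81% of all 32851 windows. Members are counted by gene, over 31 windows, and the other share is by window. The 7 genes were all in the chromosome 9 cluster, which has 8 genes with a window. The match in Mmp20 was TGAATCA, with another middle base. The stretches around the 7 matches are shown because they set 7 genes of this cluster apart from the other members with a window; capitals mark the match, with 10 bases on either side, 5′ to 3′ on the strand of the gene.
Mmp13: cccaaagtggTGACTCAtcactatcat
Mmp1b: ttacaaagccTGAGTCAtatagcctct
Mmp3: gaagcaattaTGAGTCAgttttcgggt
Mmp1a: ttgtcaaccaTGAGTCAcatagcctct
Mmp10: agcacccatgTGAGTCAtgcttagtga
Mmp20: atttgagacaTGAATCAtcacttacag
Mmp7: agtgtgcaaaTGAGTCAcctatttcca
In GRCm38.p6 they lie at chr9:7272469-7272495 for Mmp13, chr9:7388103-7388129 (minus strand) for Mmp1b, chr9:7445766-7445792 for Mmp3, chr9:7464058-7464084 for Mmp1a, chr9:7502269-7502295 for Mmp10, chr9:7628126-7628152 for Mmp20 and chr9:7692017-7692043 for Mmp7. The first base of the match lies 35 to 95 bases before the annotated start.

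Of the other motifs, TATAAA was found in 11 of the 29 (37.9%; 13.6% of all windows), GGGCGG in 18 (62.1%; 35.7%) and AGGTCA, letters read by many nuclear receptors, in 4 (13.8%; 16.3%), all read on both strands. A match is a description of the sequence and not of binding.

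The cluster's genes did not move as one. Over the 12 group values, the 28 pairs among the 8 genes had a median Pearson r of 0.16, from -0.68 to 0.77, and the 903 pairs among all 43 genes a median of 0.01; the points share extracts and are given as a description. Mmp3 and Mmp7 had ranges of 1.10 and 2.65, and the other 6 genes ranges of 0.47 to 0.89.

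Mmp3 encodes stromelysin, which cuts proteoglycans, laminin and other proenzymes of the family. HF1 was on the negative side of HF0 in experiment 2. HF1 over HF0 was -1.12 and -0.88 (fit -0.86 ± 0.22, adjusted p = 0.689), HF3 over HF1 was 0.96 and 0.69, and HF4 over HF1 was 0.87 and 0.97 (fit 0.89 ± 0.22, adjusted p = 0.115). HF1-REV lay with HF1, HF1 over HF1-REV being 0.22 and -0.01. STD of experiment 2 also lay on this side, with HF0 over STD at 1.14, 1.07, 0.89 and 0.67, while the arrays of experiment 1 gave -0.20 and -0.15. HF4 over STD in experiment 1 was 0.80 and 0.98 (fit 0.64 ± 0.17, adjusted p = 0.1825). HF4 over HF4-REV was 0.26 and 0.76, and HF3 over HF3-REV was 1.09 and -0.68, with the swap arrays on opposite sides.

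Mmp7, matrilysin, is a secretory protease that the epithelium of the epididymis is known to make. Its large range came from 1 extract, STD of experiment 2, at 2.16 over HF0: HF0 over STD was -1.71, -2.32, -2.66 and -1.95 there and -0.53 and 0.31 in experiment 1. The fit over both gave -1.01 ± 0.56 (adjusted p = 0.731). The 10 epididymis markers stood at a median of 5.05 over HF0 in that same extract, all 10 on the positive side. In STD of experiment 1 all 10 were also positive, with a median of 1.59, where the group value of Mmp7 was -0.15. The part of these markers in the Mmp7 values was not tested. In the other groups of experiment 2 Mmp7 lay between -0.49 and 0.45. Adamts18, at 1.17 over HF0 in the STD extract of experiment 2, showed the same direction as Mmp7 there. Its HF0 over STD was -1.16, -1.25, -1.15 and -1.14 in experiment 2, and -0.04 and -0.19 in experiment 1. Adamts18 is a protease of the other ADAMTS group, and HF4-REV lay farthest on its negative side, at -0.83.

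The collagenases gave no call. Mmp13, which cleaves the fibrillar collagens of mouse tissue, was positive in HF3 over HF3-REV (0.48 and 0.56; fit 0.63 ± 0.17, adjusted p = 0.184) and in HF1 over HF1-REV (0.65 and 0.43; fit 0.54 ± 0.19, adjusted p = 1), and split in HF4 over HF4-REV (0.47 and -0.42). Mmp8, the neutrophil collagenase, was 0.75 and 0.33 in HF4 over HF4-REV (fit 0.51 ± 0.15, adjusted p = 0.0843). Mmp1a and Mmp1b, the mouse counterparts of interstitial collagenase, ranged over 0.66 and 0.47, and Mmp1a was negative in HF3 over HF0 on all 4 arrays, from -1.20 to -0.07 (fit -0.21).

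Mmp2, the gelatinase that cuts denatured collagen and basement membrane, was on the negative side of HF0 in HF1 (-0.35 and -0.77) and positive in HF3 over HF3-REV (0.76 and 0.45; fit 0.43 ± 0.29, adjusted p = 0.518). In HF4 over HF0 it was -0.26 and -0.74 in experiment 1 and -1.46 and 0.44 in experiment 2, so the swap of experiment 2 disagreed in sign. Mmp14, the membrane enzyme that activates Mmp2, was negative in HF4 over HF0 on all 4 arrays, between -0.43 and -0.02 (fit -0.31 ± 0.30, adjusted p = 0.874), and in HF4 over STD of experiment 1 was -1.40 and -0.83. The HF4 against STD group values of Mmp14 opposed each other, at -0.75 in experiment 1 and 0.50 in experiment 2, and the fit gave -0.12 ± 0.30 (adjusted p = 0.879).

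Of the other membrane-type enzymes, Mmp16, Mmp17, Mmp24 and Mmp25 were measured and none was called. Mmp17 was on the negative side of HF0 against STD on all 6 arrays, between -0.77 and -0.13 (fit -0.36 ± 0.20, adjusted p = 0.731). Mmp24 was -0.24 and -3.10 in HF4 over HF1, so that 1 array set the size of the fitted -0.74. Mmp16 followed the dye, with red over green positive on 3 of 34 arrays.

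Among the rest of the metalloproteinases, Mmp19, which cuts basement membrane proteins, was negative in HF4 over HF3 on all 4 arrays (-0.92 to -0.10) and in HF4 over HF1 (-0.50 and -0.55; fit -0.58 ± 0.25, adjusted p = 0.324). Mmp11, known from fat as stromelysin-3 and as a brake on adipocyte formation, was negative in HF4 over HF1 (-0.32 and -0.76; fit -0.43 ± 0.16, not called) and in all 3 reversal pairings on each of their 6 arrays, from -0.53 to -0.15. Mmp10, Mmp20, Mmp23 and Mmp28 had ranges of 0.37 to 0.79, and Mmp23 followed the dye on 30 of 34 arrays.

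Taking the dye over the whole family, 9 of 43 genes (20.9%) had a mean red over green value over 0.25 in size, as did 20.8% of all features. A dye swap cancels such a constant term in the mean of its 2 arrays, but not in single arrays. The mean over all arrays can also hide a dye term that differs between the experiments. For Mmp21 it was 0.01, but red over green was positive on every array of experiment 1 and negative on most of experiment 2.

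Of the remaining ADAMTS genes, Adamts3, a procollagen-processing enzyme, was positive in HF0 over STD on all 6 arrays, from 0.12 to 1.01 (fit 0.52 ± 0.16, adjusted p = 0.674), and in HF3 over STD (0.39 and 0.47) and HF4 over STD (0.09 and 0.22). Adamts9, whose probes disagree, was 0.04 to 0.41 in HF3 over HF0 on its 4 arrays (fit 0.12). Adamts6, Adamts7, Adamts10, Adamts12, Adamts16 and Adamts19 had ranges of 0.24 to 0.75 and no call. The 2 probes of Adamts10 gave 0.52 and -0.36 in HF4 against HF4-REV and correlated at -0.12, so its small range is that of a mean of probes that disagree.

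Adamtsl4, a protein that binds fibrillin, was positive in HF0 over STD on all 6 arrays, at 0.49 and 0.17 in experiment 1 and from 0.54 to 1.62 in experiment 2 (fit 0.75 ± 0.18, adjusted p = 0.632), and negative in HF1 over HF0 (-0.46 and -1.44; fit -0.78 ± 0.22, adjusted p = 0.689). Over the 12 group values its pattern was most like that of Mmp3 among the genes with a range over 1 (Pearson r = 0.87). Adamtsl1, Adamtsl2, Adamtsl3 and Adamtsl5 ranged over 0.29 to 0.66. The probes of Adamtsl1 correlated at 0.56 and those of Adamtsl3 at -0.07.

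The likeness of patterns over the 12 group values, given as a description with the shared extracts in mind, was compared among the 11 genes with a range over 1. Among these it put Adamts5 nearest to Timp4 (r = 0.84; 0.87 without the 2 farthest values), Timp2 (0.83) and Adamts1 (0.77). Adamts4 ran opposite to Adamts15 (-0.81). With the mean of the fibroblast and mesothelium markers Adamts5 had r = 0.95, Timp2 0.88, Adamts1 0.82 and Mmp7 -0.82. With that of the adipocyte markers Mmp3 had -0.91, Adamts4 -0.77 and Timp4 0.72. The endothelium markers gave like values, -0.82 for Mmp3, -0.61 for Adamts4 and 0.82 for Timp4. With the male germ cell markers Adamts15 had -0.80 and Adamts4 0.66. In experiment 2 the fibroblast list was at a median of 0.50 over HF0 in HF3, 0.52 in HF3-REV, 0.40 in HF1-REV, 0.33 in HF4-REV and 0.23 in HF1, against -0.105 in HF4 and -0.44 in STD. In experiment 1 this list was at a median of -0.05 over HF0 in HF3, -0.12 in HF4 and 0.07 in STD. Its part in the Adamts5 values was not tested.

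Genes that act with these enzymes were read from 4 lists, chosen, like the members, with earlier results of these data known. Of 8 plasminogen system genes measured, 0 passed in any of the 12 comparisons, and of 11 substrate genes also 0; in HF4 against HF4-REV, 9 of the 11 substrates were negative, with a median of -0.30, among them Col1a1 at -1.29 (adjusted p = 0.171). Of 15 activators and other inhibitors, 1 was called on the positive and 1 on the negative side in that comparison: Pcsk6, a proprotein convertase, was 0.79 and 1.97 (fit 1.28 ± 0.29, adjusted p = 0.0426), and Spock2, a matrix proteoglycan, was -1.68 and -0.14 (fit -0.94 ± 0.14, adjusted p = 0.0191). Of 16 other matrix proteases 1 was called, Fap, the fibroblast activation protease, at -0.83 and -0.94 (fit -0.85 ± 0.18, adjusted p = 0.0392), and 13 of the 16 were negative, with a median of -0.59. In the other 11 comparisons 0 genes of these 2 lists passed, where at most 4.21% of all features did. Across all features in HF4 against HF4-REV, 11.2% were called and 52.5% were positive, with a median of 0.03. With so few genes called, these counts are no result about the lists. Reck and Lrp1, a membrane inhibitor and a scavenger receptor of the enzymes, were -1.22 and -1.29 in the fit of HF4 against HF4-REV and did not pass.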

How the data were processed

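RNA of epididymal fat was compared on 34 two-colour arrays. The authors deposited 1 table of log ratios per probe, taken here as log2 ratios; the base, numerator dye, normalization and spot filter are stated in no label or header, and intensities were not used here. Of 25344 probes, 21082 had 1 symbol, 30 several and 4232 none; a single symbol names a gene, and 22879 features resulted. Values ran from -6.31 to 7.99 with array medians of -0.062 to 0.046, and 0 columns of per-sample values were left unused. Each array was centred on its median, probes of a gene were averaged, signs were turned to 1 direction and dye swaps averaged. Least squares gave 12 group values (4 extracts in experiment 1 and 8 in experiment 2). They were fitted with limma 3.58.1 (R 4.3.3), the experiment being a block, which left 3 residual degrees of freedom beside 3.16 from the prior. P-values were adjusted by Benjamini-Hochberg across the 22879 features, with a threshold of 0.05. The HF1 and reversal contrasts take HF0, HF3 and HF4 as averages of both experiments. HF1 and the reversal groups add nothing to the estimate of the spread, as each has 1 value. Tables and figures used Python 3.11.15, pandas 2.3.3, numpy 2.4.6 and matplotlib 3.10.9. The fit was tested on simulated data whose pairings add up and hold no dye term. Experiment 1 is unlike that, so the simulation does not show how the fit does there. The number of arrays and extracts limits the precision.

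The members, the gene and marker lists and the tests were chosen with earlier results of these data known. Named genes were those past the threshold, the 3 most positive and 3 most negative per comparison whose arrays share a sign, 11 genes always given, the extremes of range, and list genes past the threshold or largest in size; other members are named to account for all 43. Leaving out pairings of experiment 1 and fitting experiment 2 alone on its 22 arrays were alternatives chosen after seeing the data.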

Additional observations from a re-analysis of the deposited data

Results flagged for a closer look

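Of 15 values tested for an outlying array, 2 had 1 array far from the other 3 among the arrays of HF0 with STD in experiment 2, as the largest gap divided by the range; chance flags about 1 in 20 groups. They were Mmp17, with an array at -0.77 beside -0.63 to -0.65, and Adamts1, with an array at -0.29 beside -0.05 to -0.03.

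Of 51 values compared between the experiments, 7 had all arrays of experiment 1 on one side and all of experiment 2 on the other. These differences were not tested. No share over all features is given, so the count is no result about these genes. For HF0 over STD the means were -0.50 in experiment 1 and 0.80 in experiment 2 for Adamts5, and -0.17 and 0.94 for Mmp3. For HF3 over HF0 they were -1.07 and 2.78 for Adamts5, -0.63 and 1.67 for Adamts1, and 0.26 and -0.35 for Mmp3. For HF4 over HF0 they were -0.20 and 0.53 for Adamts4 and -0.57 and 0.13 for Mmp3.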

How the results depend on the processing

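Of the 43 genes, the number called was within 1.5 times the main count in every comparison with arrays not centred, probes combined by their median or by the most variable one, or a robust prior. In what follows, the cause of a change was not tested where the setting itself does not give it. The share of all features is given only for some settings, so a changed count by itself is not a result about the family. Fitting all 34 arrays with a dye term, or with a dye term for each date, called 9 and 12 genes in HF0 against STD, 9 and 10 in HF3 against STD, 8 and 10 in HF4 against STD, 6 and 8 in HF1 against HF0, 5 and 5 in HF3 against HF0, 3 and 4 in HF4 against HF0, 3 and 3 in HF4 against HF3, 7 and 8 in HF3 against HF1, 9 and 13 in HF4 against HF1 and 1 and 3 in HF3 against HF3-REV. These fits gave 3 and 4 for the HF4 reversal contrast against the HF1 one, and the second gave 1 for that of HF4 against HF3. The 22 arrays of experiment 2 alone called 15, 11, 9, 7, 5, 3, 5, 7 and 11 in the first 9 of these comparisons, 3 in HF3 against HF3-REV, and 4 and 3 for the last 2 contrasts; all features passed there at 23.9%, 16%, 14.6%, 14.4%, 19.7%, 12.8%, 18.4%, 10.4%, 25.5%, 5.88%, 13.2% and 8.15% in that order. Such fits take dye swaps as replicates and have more degrees of freedom. Scaling arrays to 1 median absolute deviation called 1 in HF4 against STD, 1 in HF3 against HF3-REV and 2 in HF4 against HF4-REV. Quantile normalization called 0 in HF4 against HF1, 1 in HF3 against HF3-REV and 0 in HF4 against HF4-REV, and keeping features stable between swaps (27 of the 43 genes) called 2 in the last. Without the STD extract of experiment 2 there was 1 in HF4 against STD, 2 in HF3 against HF1, 3 in HF4 against HF1, 1 in HF3 against HF3-REV and 1 in each HF4 contrast. Without both arrays of HF0 with STD in experiment 1 there was 1 in HF0 against STD, 2 in HF4 against STD, 2 in HF4 against HF1 and 1 in the contrast of HF4 with HF1. Without any other pairing of experiment 1 there were 0 in HF4 against HF1, and without HF3 with HF0, HF3 with STD or HF4 with HF3 there were 2 in HF4 against HF4-REV. Leaving out 1 array at a time gave 0 to 1 in HF4 against HF1 and in HF4 against STD, 0 to 5 in HF3 against HF3-REV, 3 to 6 in HF4 against HF4-REV, 0 to 2 in both HF4 contrasts and 0 in the others. Mmp21 in HF4 against HF4-REV was -0.0285 without the second of its arrays (adjusted p = 0.906; limma) and 1.34 without the first. Read as Cy3 over Cy5, Adamts4 in HF4 against HF1 was -0.96, and in HF4 against HF4-REV Adamts4 was -2.02, Timp4 1.42, Adamts15 1.21 and Mmp21 -0.66. Without signal over background, the table cannot show which spots were dim.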
